A study of Mus musculus with 59 samples.

Results

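The genes described here encode apolipoproteins and proteins that load lipid onto them in the liver: *Apoa1*, *Apoa2*, *Apoa4*, *Apoa5*, *Apob*, *Apoc2*, *Apoc3*, *Apoe*, *Mttp* and *Tm6sf2*. They are 10 of 21774 protein-coding RefSeq genes, and their sites were taken from 7 lists of peaks, the intervals where a transcription factor was found on DNA by ChIP-seq. A peak was given to a gene if its centre lay in the gene or if the nearest transcription start site (TSS) of a protein-coding gene, within 100 kb, was that gene's. By this rule 172 of 102931 listed peaks belonged to the 10 genes.

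BCL6, a transcriptional repressor, and PPARα and PPARδ, nuclear receptors that respond to fatty acids, were mapped in whole liver of male mice to compare their binding in the fed and the fasted state. There were 6 lists from C57BL/6 mice whose genotype is given as WT, either fed ad libitum or fasted overnight, with 1 list for each factor and state. The other list was of BCL6 in fed *Bcl6* fl/fl mice of the same strain, which carry floxed alleles and no Cre. Each list was made by the authors from 3 replicates, 21 of the 59 samples of the series, and gives only where peaks lie, so no value has an error between animals and no test was made. A site called in one feeding state and not in the other may have fallen on either side of the authors' threshold, and the depth of the libraries is unknown. In whole liver, fewer bound cells and less binding per cell cannot be told apart.

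The liver exports triglyceride in very low density lipoprotein. In the endoplasmic reticulum, microsomal triglyceride transfer protein (*Mttp*) adds lipid to apolipoprotein B (*Apob*), the single large protein that wraps each particle, and TM6SF2 takes part in filling the particle with lipid. Smaller apolipoproteins sit on the surface and exchange between particles in blood, where APOC2 activates lipoprotein lipase, APOA5 promotes and APOC3 slows the clearance of triglyceride, and APOE binds clearance receptors. APOA1 and APOA2 are the main proteins of high density lipoprotein. *Apoa1*, *Apoc3*, *Apoa4* and *Apoa5* lie side by side on chromosome 9, and *Apoe* and *Apoc2* near each other on chromosome 7. PPARα is activated in fasting and by fibrate drugs, and PPARs bind with RXR to a direct repeat of AGGTCA with 1 base between the repeats, called DR1, which HNF4α binds as well.

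The sequences under 8 of the sites are shown because they are the promoter sites nearest to the start of their genes or, for *Apoa1*, which had no promoter site, its site called for all 3 factors. The *Apoe* promoter site is not among those shown. A promoter here begins 1000 bp before a TSS and ends 100 bp after it. Each is written 5′ to 3′ on the strand of the gene, from mm10 (GRCm38.p6), without the bases that belong to an untranslated region. Capitals mark matches, on either strand, to 6 consensus elements: TTCCTAGAA for BCL6 with up to 1 mismatch, DR1 with up to 2, CAAAGTCCA for HNF4 with up to 1, TTGCGCAA for C/EBP with up to 1, AAGTAAACA for FOXA with none, and TATTGAT followed by a pyrimidine for HNF6 with none. HNF4 and DR1 matches can overlap. A match describes the letters and is not evidence of binding.
Apoa1, chr9:46215697-46215995, plus strand: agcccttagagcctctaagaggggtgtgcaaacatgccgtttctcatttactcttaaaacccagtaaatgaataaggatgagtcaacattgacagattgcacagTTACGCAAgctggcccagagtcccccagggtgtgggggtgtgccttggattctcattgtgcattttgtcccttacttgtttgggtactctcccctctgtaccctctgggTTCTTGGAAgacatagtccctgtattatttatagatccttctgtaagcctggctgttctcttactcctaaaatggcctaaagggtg
Apoa2, chr1:171224855-171225053, plus strand: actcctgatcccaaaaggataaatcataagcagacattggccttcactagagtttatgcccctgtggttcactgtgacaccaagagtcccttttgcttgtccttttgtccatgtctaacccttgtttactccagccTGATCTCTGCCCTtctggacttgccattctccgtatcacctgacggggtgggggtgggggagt
Apoa4, chr9:46240584-46240806, plus strand: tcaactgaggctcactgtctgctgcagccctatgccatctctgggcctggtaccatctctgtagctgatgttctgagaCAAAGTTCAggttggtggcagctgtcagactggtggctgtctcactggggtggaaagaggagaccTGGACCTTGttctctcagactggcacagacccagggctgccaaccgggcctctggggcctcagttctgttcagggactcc
Apoa5, chr9:46268348-46268585, plus strand: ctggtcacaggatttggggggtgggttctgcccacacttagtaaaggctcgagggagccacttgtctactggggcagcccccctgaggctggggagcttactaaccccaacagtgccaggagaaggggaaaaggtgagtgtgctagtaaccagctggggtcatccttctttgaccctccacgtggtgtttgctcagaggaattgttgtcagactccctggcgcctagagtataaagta
Apob, chr12:7977521-7977628, plus strand: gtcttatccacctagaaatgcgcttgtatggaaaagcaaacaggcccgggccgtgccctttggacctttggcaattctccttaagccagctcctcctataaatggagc
Apoc2, chr7:19677955-19678083, minus strand: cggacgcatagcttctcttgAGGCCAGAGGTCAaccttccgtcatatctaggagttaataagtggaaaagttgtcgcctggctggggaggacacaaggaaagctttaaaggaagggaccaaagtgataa
Apoc3, chr9:46235300-46235510, minus strand: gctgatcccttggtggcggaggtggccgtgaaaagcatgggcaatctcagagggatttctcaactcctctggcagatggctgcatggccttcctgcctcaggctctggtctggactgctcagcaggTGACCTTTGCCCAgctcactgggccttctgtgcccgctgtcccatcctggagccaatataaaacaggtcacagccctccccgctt
Tm6sf2, chr8:70072726-70072923, plus strand: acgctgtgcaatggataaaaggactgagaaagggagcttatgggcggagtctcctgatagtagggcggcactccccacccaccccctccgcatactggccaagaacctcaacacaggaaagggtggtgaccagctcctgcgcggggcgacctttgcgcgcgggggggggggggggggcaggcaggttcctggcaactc

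Under the *Apoa1* site the capitals are a C/EBP match and, on the opposite strand, a BCL6 match, each with 1 mismatch. DR1 matches stand in the *Apoa2* promoter with 2 mismatches, in the *Apoc2* promoter with 1 and in the *Apoc3* promoter with 2, and the *Apoa4* promoter holds 2 HNF4 matches with 1 mismatch each. None of the 6 elements was found in the printed stretches of *Apoa5*, *Apob* and *Tm6sf2*.

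In fed liver 40 PPARα peaks belonged to the 10 genes and in fasted liver 45, against 26 and 13 for BCL6 and 17 and 4 for PPARδ. The PPARα lists are also the longest, and as a share of each list the members' peaks made up 0.187% and 0.155% for PPARα, 0.166% and 0.135% for BCL6, and 0.232% and 0.167% for PPARδ, in fed and fasted liver. At least 1 PPARα peak was assigned to 9 of the 10 genes in fed liver, where 34.3% of all protein-coding genes had one, and to all 10 in fasted liver, where 46.0% did. BCL6 peaks were assigned to 8 genes in fed liver, against 28.0% of all genes, and to 6 in fasted liver, against 20.6%. For PPARδ the counts were 8 genes in fed liver, against 18.6%, and 3 in fasted liver, against 8.70%. The *Bcl6* fl/fl list gave 27 peaks at 8 genes, with 30.9% of all genes having one.

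**Figure D1:**
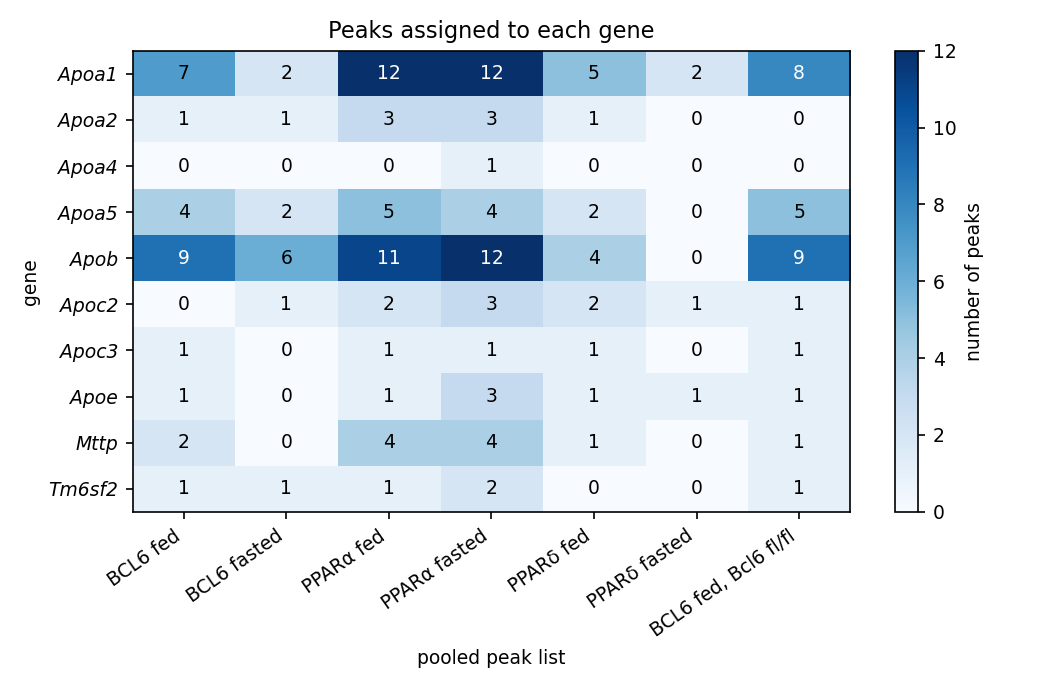
Number of peaks assigned to each gene (rows) in each of the 7 pooled lists (columns), with darker blue for more peaks. *Apoa1* and *Apob* have the highest counts, up to 12 in the PPARα lists, and *Apoa4* has a single peak, in the fasted PPARα list.

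From the fed to the fasted list the members' BCL6 peaks changed by -50.0%, beside -38.5% over all BCL6 peaks. Their PPARδ peaks changed by -76.5%, beside -67.3% over that whole list, and their PPARα peaks by 12.5%, beside 35.8%. So the counts moved in the same direction as the whole lists for each factor.

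Peaks of the 6 C57BL/6 lists whose centres lay within 200 bp of each other were joined into sites. There were 56 sites at the 10 genes, of 38462 in the genome. *Apoa1* had 17, *Apob* 15, *Apoa5* 5, *Apoc2* and *Mttp* 4 each, *Apoa2*, *Apoe* and *Tm6sf2* 3 each, and *Apoa4* and *Apoc3* 1 each. Per length of the stretch assigned to a gene, the 10 genes had 12.3 sites per 100 kb over 454 kb, beside 1.92 over all genes and a median of 3.59 over the 11206 genes with any site. The density depends on the reach: with peaks up to 1 Mb from a TSS it was 4.36 for the 10 genes and 1.49 over all genes. By gene, at 100 kb, this ranged from 6.07 for *Apoa4* to 39.1 for *Apoc2*, whose stretch is only 10.2 kb long. *Apoa4* was above 84.6% of all genes and *Apoc2* above 99.9%.

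Of the 56 sites, 18 lay inside another protein-coding gene. That was so for 13 of the 17 *Apoa1* sites, which lie in *Sik3*, the gene of a salt-inducible kinase upstream of the cluster. It was also so for 3 of the 4 *Apoc2* sites, all in *Gm44805*, and for single sites of *Apoe* (in *Tomm40*) and *Tm6sf2* (in *Sugp1*). The *Apoc2* sites 1567 and 1076 bp downstream of the TSS lie within *Apoc2* as well as *Gm44805*, and the *Apoc2* promoter site reaches into *Apoc4*. Which gene such a site acts on was not tested. With peaks inside other genes left out, 38 sites remained.

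The apolipoproteins of high density lipoprotein come first. *Apoa1* is on chromosome 9 from 46228630 to 46230469, plus strand. Its peaks numbered 7 in fed and 2 in fasted liver for BCL6, 12 and 12 for PPARα, and 5 and 2 for PPARδ, with 8 for BCL6 in *Bcl6* fl/fl liver. The farthest *Apoa1* site was 87691 bp upstream and the last lay 2383 bp past the TSS, and none was in its promoter. PPARα was called at 15 of the 17, and at 9 of those 15 in both states. BCL6 was called at 7, of which 5 were in fed liver only and 2 in both. The 1 site called for all 3 factors was chr9:46215697-46215995, in an intron of *Sik3* 12780 bp upstream of *Apoa1*. All 3 factors were called there in both feeding states, which was so at no other site of the 10 genes, and BCL6 was called there in *Bcl6* fl/fl liver too.

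*Apoa2* (chromosome 1, 171221564 to 171226379, plus strand) had 3 sites, and PPARα was called at each of them in both states. The promoter site, chr1:171224855-171225108, 71 bp upstream of a TSS and within the first intron of a longer transcript, had PPARα alone. At 1063 bp upstream, chr1:171223851-171224128, in the same intron, PPARα and BCL6 were called in both states and PPARδ in fed liver only. No BCL6 peak was assigned to *Apoa2* in *Bcl6* fl/fl liver, so that its BCL6 site was not found again there.

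The other genes of the chromosome 9 cluster differed in how many sites they had. *Apoc3* (46233050 to 46235636, minus strand) had 1 site, chr9:46235225-46235510, with its centre 68 bp upstream of a TSS and within intron 1 of a longer transcript. It was the only promoter site of the 10 genes with all 3 factors. PPARα was called there in both states, whereas BCL6 and PPARδ were called in fed liver only, and BCL6 also in *Bcl6* fl/fl liver. The nearest BCL6 and PPARα centres, taken over both feeding states, lay 65 bp apart at this site. That was the widest such gap among the 22 member sites with both. The 200 bp around its centre held a BCL6 match as well as the DR1 printed above.

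*Apoa4*, the gene of an apolipoprotein made mainly in the intestine (46240844 to 46243458, plus strand), had 1 peak in all 7 lists, of PPARα in fasted liver. It lay 149 bp upstream of the TSS, at chr9:46240584-46240806. Around *Apoa5* (46268608 to 46271921, plus strand) were 5 sites, and PPARα was called at all of them. At the promoter site, chr9:46268348-46268585, 140 bp upstream of the TSS, PPARα was called in both states and neither BCL6 nor PPARδ in C57BL/6 liver. In *Bcl6* fl/fl liver a BCL6 peak was called 71 bp upstream of the same TSS. The other 4 sites lay 7231 to 12243 bp upstream, and each had BCL6 with PPARα. At chr9:46256791-46257097, 11658 bp upstream, all 3 factors were called in fed liver only. At chr9:46261234-46261535, 7231 bp upstream, PPARα was called in both states and BCL6 and PPARδ in fed liver only. Of the 5 BCL6 peaks at *Apoa5* in *Bcl6* fl/fl liver, the one 8696 bp upstream had no C57BL/6 peak of any factor within 200 bp.

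**Figure D2:**
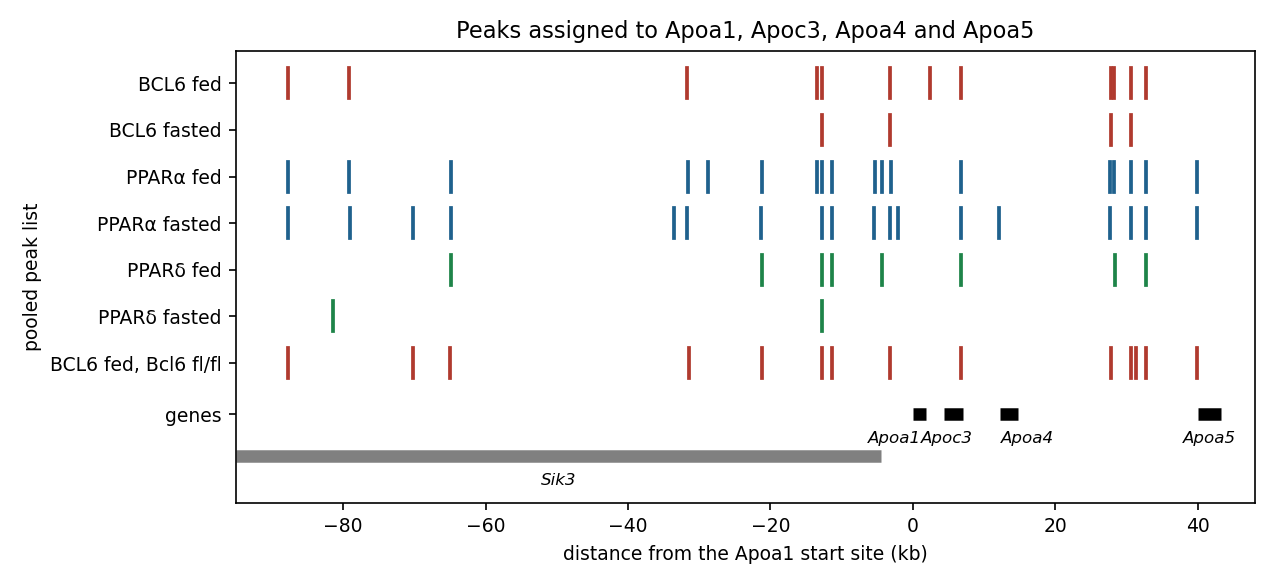
Peaks assigned to *Apoa1*, *Apoc3*, *Apoa4* and *Apoa5* in each of the 7 pooled lists (rows; each tick is 1 peak centre, red for BCL6, blue for PPARα and green for PPARδ), by distance in kb from the *Apoa1* start site, with the genes as bars at the bottom. Fed liver has 12 BCL6 peaks and fasted liver 4, while PPARα has 18 in each, and most of the peaks on the left lie within *Sik3*.

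*Apob* (chromosome 12, 7977629 to 8016839, plus strand) had 9 BCL6 peaks in fed liver and 6 in fasted liver, 11 and 12 PPARα peaks, and 4 and 0 PPARδ peaks. Its 15 sites began 67425 bp before the TSS and ended 69561 bp after it, and none lay inside another protein-coding gene. PPARα was called at 13 of them, in both states at 10. BCL6 was called at 9, of which 6 were in both states and 3 in fed liver only. *Apob* thus held 6 of the 12 BCL6 sites of the 10 genes that were called in both states.

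In C57BL/6 liver the BCL6 sites of *Apob* were all outside its promoter and body. All 3 factors were called at chr12:7919968-7920226 (57532 bp upstream), chr12:7950117-7950558 (27287 bp upstream) and chr12:8038149-8038482 (60641 bp downstream of the TSS). At each of the 3, BCL6 and PPARα were called in both states and PPARδ in fed liver only. BCL6 was found at all 3 in *Bcl6* fl/fl liver. At the promoter, chr12:7977521-7977737, centred on the TSS in exon 1, only PPARα in fed liver was called in C57BL/6 mice. A BCL6 peak 111 bp upstream of this TSS was called in *Bcl6* fl/fl liver.

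**Figure D3:**
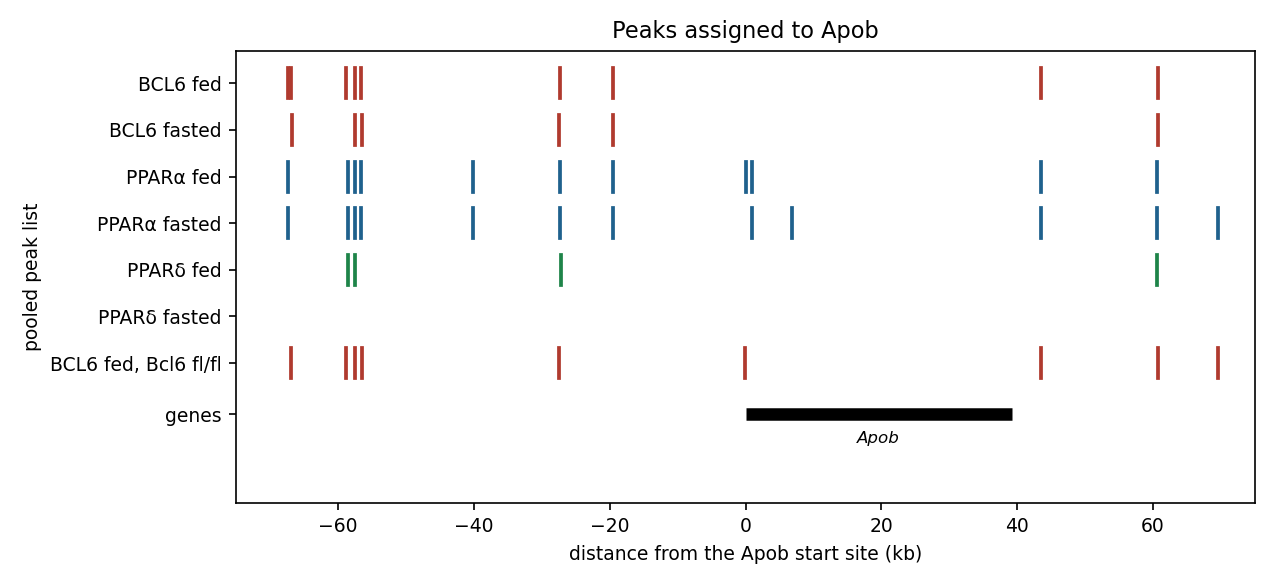
Peaks assigned to *Apob* in each of the 7 pooled lists (rows; each tick is 1 peak centre, coloured by factor as red for BCL6, blue for PPARα and green for PPARδ), by distance in kb from the *Apob* start site, with the gene as a black bar. BCL6 has 9 peaks in fed and 6 in fasted C57BL/6 liver, all outside the gene, and PPARδ has 4 in fed liver and 0 in fasted liver.

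The assembly genes *Mttp* and *Tm6sf2* had fewer sites than *Apoa1* and *Apob*. *Mttp* (chromosome 3, 138089855 to 138143418, minus strand) had 4, the outermost being 2043 bp before and 24595 bp after the nearest TSS, and all lay within the gene because its transcripts start at several places. PPARα was called at all 4 in both states. BCL6 was called at 2, in fed liver only, and 1 of these was found in *Bcl6* fl/fl liver. PPARδ was called at 1, in fed liver only. *Mttp* had no promoter site and no site with all 3 factors. The nearest to a TSS, 263 bp downstream and in an untranslated first exon, had PPARα in both states, PPARδ in fed liver, and a DR1 and an HNF4 match.

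*Tm6sf2* (chromosome 8, 70072924 to 70080066, plus strand) had 3 sites and none of PPARδ. Its promoter sites were chr8:70071885-70072134, 916 bp upstream and in an exon of *Sugp1*, with PPARα in both states, and chr8:70072726-70072948, 87 bp upstream, with PPARα in fasted liver only. The third site, 384 bp downstream in intron 1, had BCL6 in both states and in *Bcl6* fl/fl liver, without either PPAR, and held a BCL6 match.

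The pair on chromosome 7 had no BCL6 peak at a promoter. *Apoc2* (19671579 to 19677941, minus strand) had 4 sites. At its promoter site, chr7:19677955-19678204, 132 bp upstream of the TSS and reaching into *Apoc4*, PPARα was called in both states and PPARδ in fed liver only. An *Apoc2* site 1567 bp downstream was the only BCL6 site of the 10 genes called in fasted liver and not in fed C57BL/6 liver, but the fed *Bcl6* fl/fl list held a BCL6 peak there. The site 4316 bp downstream had PPARα and PPARδ in both states. *Apoe* (19696244 to 19701310, minus strand) had 3 sites. The promoter site, chr7:19699074-19699296, centred 3 bp downstream of the TSS in exon 1, had PPARα in fasted liver only. The 200 bp around its centre held an HNF4 match. At chr7:19700865-19701205, in the untranslated first exon of a predicted transcript 279 bp downstream of its TSS, PPARα and PPARδ were called in both states and BCL6 in fed liver only. This site held BCL6, DR1 and HNF4 matches, and BCL6 was called there in *Bcl6* fl/fl liver as well.

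By feeding state, the 50 PPARα sites of the 10 genes were mostly called in both lists. That was so for 35 (70.0%, 95% Wilson interval 56.2% to 80.9%), beside 51.3% of all PPARα sites. In fasted liver only were 10 (20.0%, 11.2% to 33.0%), beside 35.8%, and in fed liver only 5 (10.0%), beside 12.8%. The fasted-only PPARα sites lay at *Apoa1* (3), *Apob* (2), *Apoe* (2), *Apoa4*, *Apoc2* and *Tm6sf2*, with no BCL6 at any of them in C57BL/6 liver. There were 11961 fasted-only PPARα sites in the genome. BCL6 was called at 796 of these in fed liver only, at 446 in both states and at 345 in fasted liver only. In *Bcl6* fl/fl liver BCL6 was called at the *Apoa1* site 70174 bp upstream and at the *Apob* site 69561 bp downstream. With peaks inside other genes left out, 25 PPARα sites were called in both states, 6 in fasted liver only and 3 in fed liver only. The intervals cover counting error only, and sites of 1 gene are not independent of each other.

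BCL6 was called at 27 sites. Of these, 14 were in fed liver only (51.9%, interval 34.0% to 69.3%), beside 45.3% of all BCL6 sites, 12 in both states (44.4%), beside 43.6%, and 1 in fasted liver only (3.70%), beside 11.0%. The 18 PPARδ sites were called in fed liver only in 14 cases (77.8%, interval 54.8% to 91.0%), beside 70.7% of all PPARδ sites, in both states in 3 (16.7%), beside 18.7%, and in fasted liver only in 1 (5.56%), beside 10.6%. For BCL6 and PPARδ each all-site share lay within the members' interval.

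**Figure D4:**
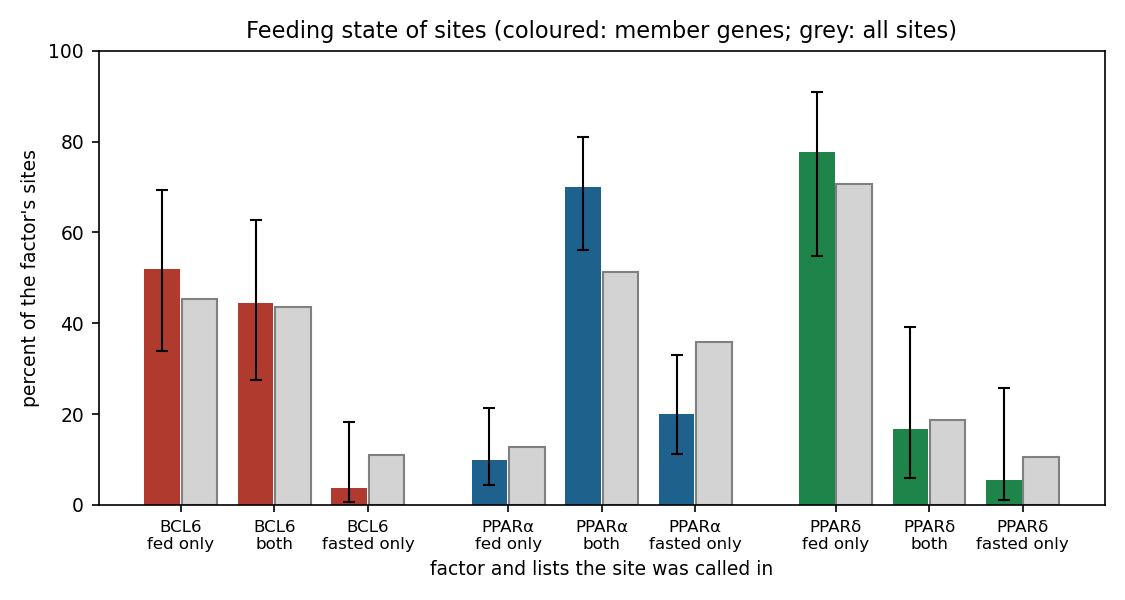
Percent of each factor's sites called in fed liver only, in both states, or in fasted liver only, for the 10 genes (coloured bars; error bars are 95% Wilson intervals, counting error only) and for all sites of the factor (grey bars). The 70.0% of member PPARα sites called in both states stands beside 51.3% of all PPARα sites, and the fasted-only share is 20.0% beside 35.8%.

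Most BCL6 sites of these genes carried PPARα too. It was called at 22 of the 27 (81.5%, interval 63.3% to 91.8%), beside 77.5% of all BCL6 sites. All 3 factors were called at 9 of the 56 sites (16.1%), beside 12.1% of all sites. They lay at *Apob* (3), *Apoa5* (2), *Apoa1*, *Apoa2*, *Apoc3* and *Apoe*. A further 13 sites had BCL6 and PPARα without PPARδ (23.2%), beside 23.4% of all sites. Both PPARs without BCL6 were called at 8 (14.3%, interval 7.42% to 25.7%), beside 6.03%, and PPARα alone at 20 (35.7%, interval 24.5% to 48.8%), beside 45.3%. Among those 8, the *Apoa1* sites 64886, 21253 and 11385 bp upstream had a BCL6 peak in *Bcl6* fl/fl liver. With the *Bcl6* fl/fl list for fed BCL6, sites of all 3 factors numbered 11. BCL6 alone was called at 5 (8.93%), beside 10.0%, and PPARδ alone at 1 (1.79%), beside 2.97%. Where BCL6 and PPARα shared a site, their nearest centres, taken over both feeding states, lay 0 to 65 bp apart. The median was 15.5 bp, beside a median of 14 bp over all 13633 such sites. The nearest pair can join a fed peak to a fasted one, so gaps within a feeding state can be wider. At an *Apoa1* site the fed BCL6 and fed PPARα centres lay at -31.683 and -31.589 kb from the TSS. The gap counted there, 31 bp, was to the fasted PPARα centre at -31.652 kb.

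Among the 22 sites of BCL6 with PPARα, BCL6 was called in fed liver only while PPARα was called in both states at 10 (45.5%, interval 26.9% to 65.3%), beside 25.1% of all such sites. Both factors were called in both states at another 10, beside 44.0%, and both in fed liver only at 2 (9.09%), at *Apoa1* and *Apoa5*, beside 8.38%. No site had the 2 factors called in opposite states, 0 of 22, where the upper end of the interval is 14.9% and 6.40% of all such sites did.

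Promoter sites numbered 9 of the 56 (16.1%), beside 13.5% of all sites. In C57BL/6 liver PPARα was called at all 9, beside 94.6% of all promoter sites, PPARδ at 2 (22.2%), beside 11.5%, and BCL6 at 1 (11.1%), the *Apoc3* site, beside 17.6%. Of the 8 promoter sites without BCL6 in C57BL/6 liver, 2 had a BCL6 peak within 200 bp in *Bcl6* fl/fl liver, those of *Apoa5* and *Apob* (25.0%, beside 12.1% of all such promoter sites). Outside promoters BCL6 was called at 26 of 47 sites (55.3%), beside 50.1% of all sites outside promoters.

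The BCL6 peaks of fed C57BL/6 liver were looked for in the fed *Bcl6* fl/fl list, another group of mice. Of 26 at these genes, 17 (65.4%, interval 46.2% to 80.6%) had a *Bcl6* fl/fl peak within 200 bp, beside 69.4% of the whole list. By feeding state this was so for 10 of the 12 BCL6 sites called in both states and for 7 of the 14 called in fed liver only, beside 88.6% and 51.0% of all such sites.

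Over all 56 sites, in windows of 200 bp, a DR1 match was found in 10 (17.9%), beside 13.5% of all sites, an HNF4 match in 10 (17.9%), beside 17.1%, and a BCL6 match in 7 (12.5%), beside 9.84%. C/EBP matches were in 5 (8.93%), beside 9.53%, HNF6 matches in 2 (3.57%), beside 6.23%, and FOXA matches in 0, beside 1.13%. By factor, DR1 matches were in 10 of the 50 sites with PPARα (20.0%), beside 14.0% of all PPARα sites, and in 7 of the 18 with PPARδ (38.9%), beside 21.1% of all PPARδ sites. BCL6 matches were in 5 of the 27 sites with BCL6 (18.5%), beside 15.0% of all BCL6 sites.

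Of 27 other genes of lipoprotein metabolism, 26 had a site, where 51.5% of all protein-coding genes did, and *Apod* had none. A site of all 3 factors was assigned to 13 of the 27, and to 6 of the 10 described above, where 12.5% of all protein-coding genes had one. Those 13 were the apolipoprotein genes *Apof* and *Apon*, the secretion genes *Sort1*, *Mia2* and *Mia3*, the lipase and transfer genes *Lipc*, *Lpl*, *Lcat* and *Lipg*, and the receptor and exporter genes *Scarb1*, *Abca1*, *Abcg5* and *Abcg8*. The genes whose counts over the 7 lists were closest to those of *Apoa1* were *Ergic1*, at a summed difference of 3 peaks, and *Atp8b1* and *Caprin1*, at 6 each. As a description of where the factors were called, 5 of 5 hepatocyte marker genes had a site, beside the same 51.5% of all genes. Among markers of blood, Kupffer and endothelial cells, *Ptprc* and *Pecam1* had a site, and *Cd3e* and *Clec4f* had none.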

How the data were processed

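ChIP-seq libraries of mouse liver were aligned to mm10 by the authors with Bowtie, and peaks were called with HOMER on pooled replicates against input and filtered with DESeq2 (tools and build as in the submitters' processing notes). The deposited lists hold only positions (chromosome, start and end), without scores or read counts, and each peak of a list has the same width, from 192 to 222 bp. Depth is therefore unknown. Sequencing of corepressors, histone marks, knockouts and RNA was not used here. Peaks were assigned to genes with RefSeq on GRCm38.p6 (56164 TSS positions), and centres were joined by single linkage at 200 bp. Shares have 95% Wilson intervals. The genes, lists and elements were chosen with earlier results of these data known, and the HNF4 element and the removal of peaks inside other genes were added after seeing the data. All 10 genes are named, with coordinates for each site in a promoter or with all 3 factors. One marker gene is not reported here. Alternatives changed the reach, the transcripts, the joining, the BCL6 list, the promoter and the element search. Functions were tested on simulated data. Python 3.11.15, NumPy 2.4.6 and Matplotlib 3.10.9 were used.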

Additional observations from a re-analysis of the deposited data

How the results depend on the processing

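Of 249 recomputed values, 223 stayed within 1.5 times the value reported (or, for the share found again in *Bcl6* fl/fl liver, within its interval) and 26 did not. No paired analysis was possible because each list pools its replicates and no result comes from a test. For the same reason no replicate could be left out, and a stricter peak threshold could not be tried without scores. With peaks inside other genes left out, fasted PPARδ peaks numbered 2, fasted-only sites 0 for BCL6, 6 for PPARα and 0 for PPARδ, fed-only PPARα sites 3, and sites of PPARα alone 13. This setting also left out peaks that lie within both *Apoc2* and *Gm44805*, among them the fasted-only BCL6 site. The single fasted-only BCL6 site became 2 with a reach of 1 Mb, with joining within 100 bp, and with the *Bcl6* fl/fl list for fed BCL6. The single fasted-only PPARδ site became 0 with a reach of 50 kb and 2 with joining within 100 bp. Sites of BCL6 alone became 3 with a reach of 50 kb, and sites per 100 kb became 4.36 with a reach of 1 Mb. Promoter sites rose to 22 with promoters from 5000 bp upstream to 1000 bp downstream. Element counts depended on the search: with 1 mismatch fewer, 0 sites held a BCL6, 2 a DR1 and 0 a C/EBP match. The HNF4 element was not searched with fewer mismatches. Read backwards, the elements matched at 1 site for BCL6, DR1, HNF6 and HNF4 each and at 0 for C/EBP. Windows of 100 bp gave 3 sites with a BCL6, 6 with a DR1, 3 with a C/EBP and 6 with an HNF4 match. Beyond these settings' own construction the cause was not tested.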
